A study of Homo sapiens with 34 samples.

Results

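The 10 genes described here encode receptors of the tumour necrosis factor (TNF) family and the cytoplasmic proteins that link them to the kinase NIK. They are CD40, TNFRSF13B, TNFRSF13C, CD27, LTBR, TRAF1, TRAF2, TRAF3, BIRC3 and MAP3K14, taken by symbol from a table of 31975 genes measured by RNA sequencing in 34 human B-cell lymphoma lines. The rule names them by symbol and uses no measured value, though earlier results of these data were known when it was written, and all 10 symbols were found once in the table. The lines were 11 of mantle cell lymphoma (MCL), 14 of germinal centre B-cell type diffuse large B-cell lymphoma (GCB DLBCL), 6 of activated B-cell type (ABC DLBCL) and 3 of Burkitt lymphoma (BL). Each line is an established culture represented by 1 library, so the lines of a pathology are its replicates, and the labels name no genotype, treatment or time for any of them. The p-values thus measure the spread between lines. The series title names CXCR4 radioligands for refractory MCL, and 30 of the 34 libraries are marked as re-analysed earlier data.

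TNF family receptors have no enzyme activity of their own and recruit TRAF adaptors when a ligand binds. In resting B cells TRAF3 bridges NIK, the product of MAP3K14, to TRAF2 and the ubiquitin ligases BIRC2 and BIRC3, and NIK is degraded as it is made. Engagement of CD40, the BAFF receptor or the lymphotoxin beta receptor breaks up this complex, NIK accumulates, and it drives processing of the NFKB2 product, which enters the nucleus with RELB. Loss of TRAF2, TRAF3 or BIRC3 by mutation is known to activate this non-canonical NF-kB route in MCL and other B-cell cancers. NIK is controlled mostly at the protein level, which RNA sequencing does not measure.

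NF-kB binds a short DNA element called kappa-B, and BIRC3 is a textbook NF-kB target, so the windows that hold its consensus are shown. The consensus was searched by its name alone on both strands of RefSeq promoter windows (GRCh38.p14) that run from 250 bases before to 50 bases after a gene's start. Of 35116 such windows 5.91% held it, and of the 8 members with a window 2 did, BIRC3 and TRAF3. Capitals mark the matches, written 5′ to 3′ on the gene's strand. The BIRC3 window is chr11:102317234-102317533 (+), with matches from -199 to -190 and from -135 to -126, where 0 is the start base. The TRAF3 window is chr14:102777199-102777498 (+), with a match from -33 to -24. These matches describe letters in a window and are no measured binding.
BIRC3: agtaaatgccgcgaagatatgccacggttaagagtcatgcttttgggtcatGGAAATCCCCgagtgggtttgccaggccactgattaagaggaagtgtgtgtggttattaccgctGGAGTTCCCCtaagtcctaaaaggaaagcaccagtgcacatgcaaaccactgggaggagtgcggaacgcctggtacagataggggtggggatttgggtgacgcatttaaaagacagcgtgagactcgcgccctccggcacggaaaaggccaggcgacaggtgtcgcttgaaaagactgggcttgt
TRAF3: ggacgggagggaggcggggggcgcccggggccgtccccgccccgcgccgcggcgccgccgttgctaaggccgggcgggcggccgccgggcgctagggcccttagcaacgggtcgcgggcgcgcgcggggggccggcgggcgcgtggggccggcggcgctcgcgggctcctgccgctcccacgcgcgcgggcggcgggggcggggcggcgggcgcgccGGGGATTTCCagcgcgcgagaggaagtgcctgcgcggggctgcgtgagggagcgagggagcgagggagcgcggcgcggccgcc

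Values are given on the authors' log2 scale, on which 4.55 stands for 0 reads, beside the whole reads recovered from them. Differences between groups are differences of mean log2 values, and no level is compared between genes. Library totals, in M reads (1e6 reads), ranged from 60.1 to 109 among MCL lines and from 2.55 to 108 among GCB DLBCL lines. BL totals were 22.6 to 92.4 M and ABC DLBCL totals 22.7 to 165 M. The libraries fell into 2 classes, told apart by ZNF593 and EMC6, which both had 0 reads in the second class. That class held 8 GCB DLBCL lines with totals of 2.55 to 4.84 M reads (DB, DOHH-2, Karpas422, NU-DHL-1, OCI-Ly1, OCI-Ly7, SU-DHL-6 and WSU-DLCL2) and the ABC DLBCL line NU-DUL-1. The class and its depth therefore moved with GCB DLBCL, and the values over the 25 lines of the first class are given beside those over all lines for the calls and for the main differences. SP-49 and SP-53 were the most alike libraries (r = 0.984 over genes) but differed far beyond sampling noise (chi-square per gene of 501). This was the lowest value among MCL pairs, before 672 for GRANTA519 with Mino and 680 for MAVER-1 with UPN1. It cannot tell whether SP-49 and SP-53 share an origin, which was not tested. All lines expressed the B-cell gene MS4A1 (at least 321 reads), and CCND1, the cyclin that defines MCL, had 6581 to 453072 reads in MCL lines against at most 3271 in the other lines. The summed level of 5 T-cell markers, in rpm (reads scaled to a library total of 1e6), was 0.243 to 266 in MCL and 0 to 166 in GCB DLBCL. It was 9.62 to 56.5 in ABC DLBCL and 0.532 to 174 in BL. Of these markers TRBC2 had medians of 4673 reads in MCL, 26 in GCB DLBCL, 1946 in ABC DLBCL and 5731 in BL. No other had a group median over 14 reads, though CD3E reached 1943 in an MCL line and CD3G 618 in a GCB DLBCL line. On the log2 scale the highest CD3G value in GCB DLBCL (12.13) exceeded the highest CD3E value in MCL (9.94). The sum of 4 fibroblast markers reached 467 rpm in GCB DLBCL, 52.0 in MCL, 46.3 in ABC DLBCL and 4.43 in BL. The part of these levels in the results was not tested.

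TNFRSF13B (ENSG00000240505, chr17:16939081-16972118 in GRCh38.p14, as all gene positions here) encodes TACI, a receptor for the ligands BAFF and APRIL, and was the 1 member called in any contrast. In MCL it ran from 9.98 (Jeko-1, 1275 reads) through a median of 11.46 to 13.85 (REC-1, 30608 reads). In GCB DLBCL it ran from the 0-read value in DB, HT, Karpas422 and WSU-DLCL2 through a median of 5.49 to 12.61 in NU-DHL-1. No MCL line was low, whereas 8 of 14 GCB DLBCL lines had at most 54 reads. The 4 of these with any reads were SU-DHL-4 and SU-DHL-10 with 3 reads each, SU-DHL-5 with 6 and Pfeiffer with 54. The other 6 GCB DLBCL lines lay inside the MCL range, at 10.06 (OCI-Ly7), 10.19 (OCI-Ly1), 10.25 (SU-DHL-6), 11.66 (Toledo), 11.94 (DOHH-2) and 12.61 (NU-DHL-1). Toledo was the first-class line among these 6, and 5 of the 6 first-class GCB DLBCL lines were low.

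The MCL mean of TNFRSF13B was 11.65 ± 1.29 (SD, n = 11) against 7.55 ± 3.30 in GCB DLBCL (SD, n = 14). The difference was 4.10 ± 1.07 (SE), past the threshold of an adjusted p of 0.05 in limma's moderated test (adjusted p = 0.0082). Within the first class the GCB DLBCL mean was 6.17 ± 2.73 (SD, n = 6) and the difference 5.48 ± 1.24 (SE, limma adjusted p = 0.018). TNFRSF13B was the 1 member of 9 tested that differed between MCL and GCB DLBCL in either fit. Over all genes 23.7% were called in this contrast in all lines and 2.83% within the first class, so the share of members called was below the background in the fit over all lines. The call held in all 10 alternative settings, with differences from 3.15 to 5.48, and with any 1 of the 34 lines left out.

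ABC DLBCL and BL lines were split for TNFRSF13B as well. In ABC DLBCL the lowest value was the 0-read value in SU-DHL-8, the median was 12.39 and the highest was 14.31 in HBL-1 (48514 reads). The 3 BL lines had 5.30 in Daudi (5 reads), 7.32 in Ramos (167 reads) and 10.43 in Raji (2790 reads). The ABC DLBCL mean of 11.34 ± 3.66 (SD, n = 6) exceeded that of GCB DLBCL by 3.79 ± 1.30 (SE), which did not pass in limma (adjusted p = 0.17), and within the first class by 5.35 ± 1.47 (SE, adjusted p = 0.14). Without SU-DHL-8 this difference was 5.14 ± 1.23 (SE) and passed (limma adjusted p = 0.032). MCL exceeded BL by 3.97 ± 1.73 (SE), which did not pass (limma adjusted p = 0.34, and 0.23 within the first class). Per-line spread was wide: the SD of TNFRSF13B over 34 lines was 3.36, and 99.8% of the genes tested had a lower one (median SD of all genes 0.70).

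**Figure D1:**
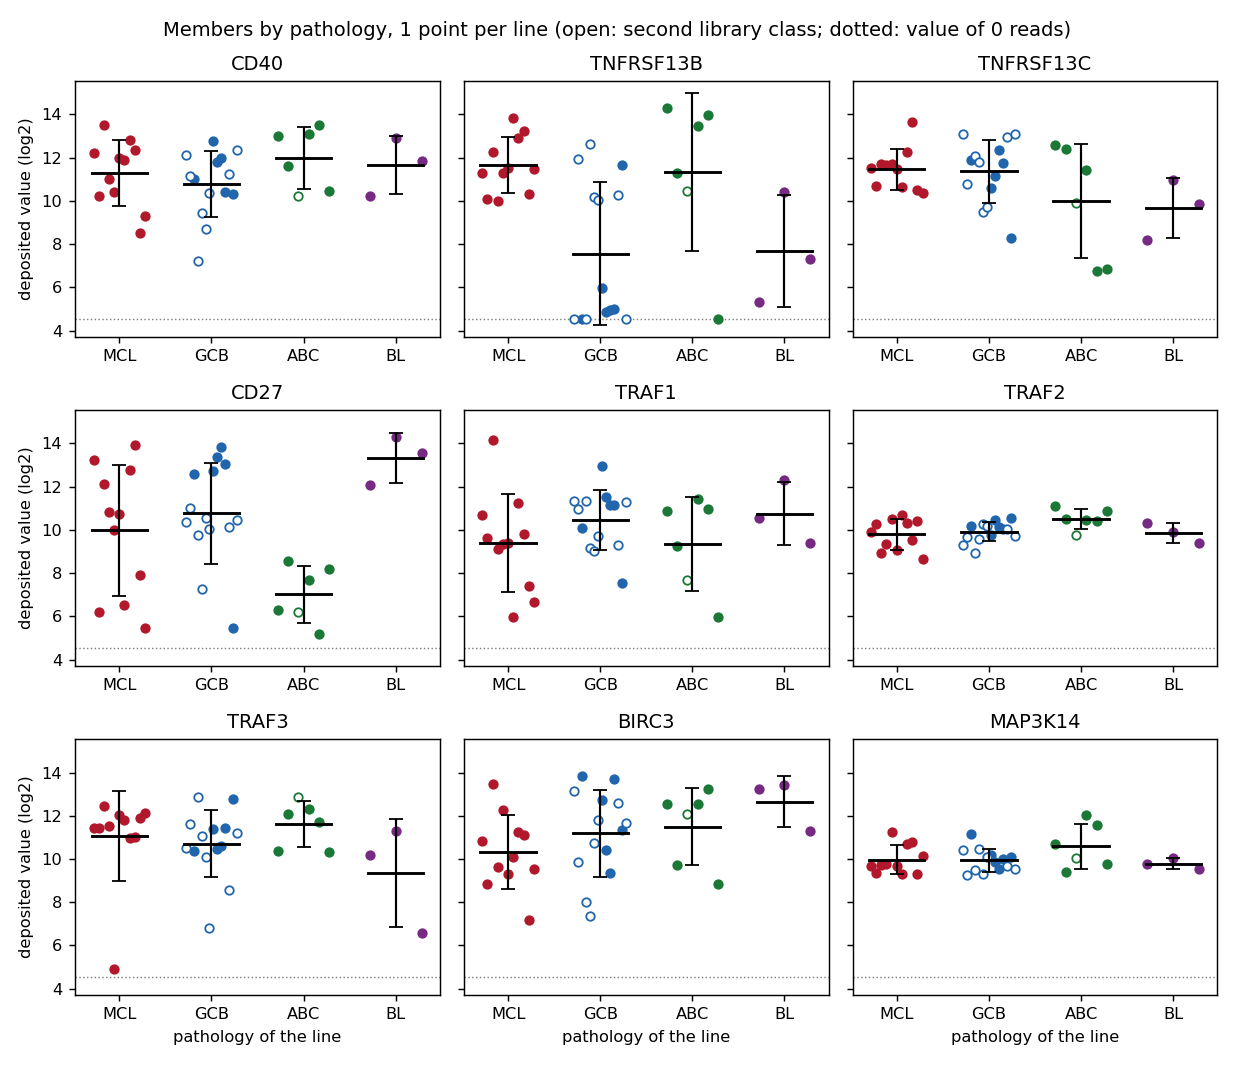
Deposited log2 value of 9 members in each of 34 lines by pathology, with black bars for the mean and SD, open points for second-class libraries and a dotted line at the value of 0 reads. TNFRSF13B lies between 9.98 and 13.85 in MCL and falls into a low and a high set of GCB DLBCL lines, the CD27 mean is lowest in ABC DLBCL, and TRAF2 and MAP3K14 vary least.

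CD27 (ENSG00000139193, chr12:6443892-6451713), the receptor for CD70 and a marker of memory B cells, was highest in BL and lowest in ABC DLBCL. The BL values were 12.06 in Daudi, 13.58 in Ramos and 14.32 in Raji (3235, 17561 and 42681 reads). The ABC DLBCL values ran from 5.17 in OCI-Ly3 (17 reads) through a median of 7.0 to 8.55 in MD903 (682 reads). The means of 13.32 ± 1.15 (SD, n = 3) and 7.02 ± 1.32 (SD, n = 6) differed by 6.30 ± 1.61 (SE). This did not pass in limma (adjusted p = 0.11 in all lines, 0.15 within the first class), in a contrast in which 0.117% and 0.537% of genes were called. ABC DLBCL minus GCB DLBCL was -3.74 ± 1.11 (SE, limma adjusted p = 0.099) and -4.66 ± 1.57 within the first class (SE, limma adjusted p = 0.26). Without Toledo it was -4.15 ± 1.03 (SE) over all other lines, which passed (limma adjusted p = 0.037).

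MCL lines covered almost the whole range of CD27, from 5.44 in Z-138 (25 reads) through a median of 10.73 to 13.93 in SP-53 (34494 reads). HBL-2 (6.19), REC-1 (6.52) and UPN1 (7.93) were the other low MCL lines, while GRANTA519, SP-49 and JVM2 had 13.25, 12.78 and 12.12. GCB DLBCL ran from 5.46 in Toledo through a median of 10.52 to 13.83 in SU-DHL-4. Its 5 first-class lines other than Toledo were at 12.58 to 13.83, and its 8 second-class lines at 7.26 to 11.03. The MCL mean of 9.97 ± 3.02 (SD, n = 11) was not separated from any other pathology (limma adjusted p of 0.29 to 0.83 over the 4 MCL contrasts). CD27 overlaps CD27-AS1 and TAPBPL, which had at least as many reads in 11 and 15 of the 34 lines, and strand use in counting is not given in the sources used here, so low CD27 values are uncertain.

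CD40 (ENSG00000101017, chr20:46118314-46129858), the receptor through which T cells stimulate B cells, was expressed in every line and was called in no contrast. It ran from 8.50 in UPN1 through a median of 11.87 to 13.49 in JVM2 in MCL. The GCB DLBCL range was 7.24 in Karpas422 (15 reads) to 12.76 in Pfeiffer, around a median of 11.07. ABC DLBCL had 10.22 in NU-DUL-1 as the lowest, a median of 12.29 and 13.52 in OCI-Ly3 as the highest value. The BL values were 10.23 in Daudi, 11.84 in Ramos and 12.93 in Raji. The means fell in the order ABC DLBCL, BL, MCL, GCB DLBCL over all lines. Within the first class GCB DLBCL (11.38 ± 0.96, SD, n = 6) came before MCL (11.29 ± 1.54, SD, n = 11). Each neighbour in either order differed by less than the larger of the 2 SDs.

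TNFRSF13C (ENSG00000159958, chr22:41922032-41926806) encodes the BAFF receptor, through which mature B cells receive a survival signal. MCL lines ran from 10.35 in Z-138 through a median of 11.50 to 13.65 in SP-53 (mean 11.47 ± 0.95, SD, n = 11). GCB DLBCL averaged 11.36 ± 1.45 (SD, n = 14), between 8.28 in Toledo and 13.11 in WSU-DLCL2. ABC DLBCL split, with OCI-Ly3 at 6.76 and SU-DHL-8 at 6.84 while HBL-1 and MD903 were at 12.60 and 12.40. The BL values were 8.19 in Daudi, 9.84 in Ramos and 10.98 in Raji. No contrast passed for TNFRSF13C. SU-DHL-8 was thus low in both of these members that bind BAFF, with 0 reads of TNFRSF13B and 178 of TNFRSF13C, while OCI-Ly3 had 61000 and 256 reads.

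LTBR (ENSG00000111321, chr12:6375160-6391566), the lymphotoxin beta receptor, which stromal and myeloid cells carry and lymphocytes mostly lack, had 0 reads in 29 of 34 lines and at most 16 reads (GRANTA519). It failed the filter on low values and was not tested. With 0 reads up to 3 remain possible, which is 0.0182 to 1.18 rpm across these libraries, for counting error only.

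TRAF1 (ENSG00000056558, chr9:120902393-120929171), an adaptor with no RING domain that is induced by NF-kB, varied widely in MCL. It ran from 5.96 in REC-1 (50 reads) through a median of 9.41 to 14.16 in JVM2 (19677 reads), the highest of the 34 lines. MCL averaged 9.41 ± 2.27 (SD, n = 11) and ABC DLBCL 9.36 ± 2.17 (SD, n = 6). BL averaged 10.75 ± 1.46 (SD, n = 3) and GCB DLBCL 10.47 ± 1.39 (SD, n = 14). The ranges of all 4 overlapped, and no contrast passed. PHF19 overlaps TRAF1 and had at least as many reads in 31 of 34 lines, so TRAF1 carries the same strand uncertainty as CD27.

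TRAF2 (ENSG00000127191, chr9:136881958-136926607), the adaptor that brings BIRC2 and BIRC3 to the complex, and MAP3K14 (ENSG00000006062, chr17:45263119-45317020), the gene of NIK, varied least of the 9 tested members. Their SDs over 34 lines were 0.59 and 0.69, and 34.8% and 48.9% of genes had a lower one. TRAF2 averaged 10.51 ± 0.47 in ABC DLBCL (SD, n = 6) and 9.79 ± 0.72 in MCL (SD, n = 11). GCB DLBCL and BL lay between, at 9.91 ± 0.45 (SD, n = 14) and 9.87 ± 0.46 (SD, n = 3). MCL minus ABC DLBCL was -0.72 ± 0.29 (SE), which did not pass in limma (adjusted p = 0.30, and 0.16 within the first class). MAP3K14 averaged 10.59 ± 1.04 in ABC DLBCL (SD, n = 6) and 9.96 ± 0.67 in MCL (SD, n = 11). The other means were 9.93 ± 0.53 for GCB DLBCL (SD, n = 14) and 9.78 ± 0.25 for BL (SD, n = 3). Its highest lines were OCI-Ly10 (12.04), OCI-Ly3 (11.55) and MAVER-1 (11.24). MAP3K14-AS1, which overlaps it, had 5 to 450 reads and fewer than MAP3K14 in every line.

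TRAF3 (ENSG00000131323, chr14:102777449-102911500), the adaptor that tethers NIK, was level in most lines and nearly absent in a few. MCL ran from 4.92 in MAVER-1 (4 reads) through a median of 11.54 to 12.44 in JVM2. GCB DLBCL ran from 6.81 in OCI-Ly7 (7 reads) through a median of 10.85 to 12.86 in Karpas422. All 6 ABC DLBCL lines were between 10.33 and 12.87, and the BL lines had 6.56 in Ramos (77 reads), 10.21 in Daudi and 11.30 in Raji. The mean of TRAF3 was 11.06 ± 2.09 in MCL (SD, n = 11) and 10.70 ± 1.56 in GCB DLBCL (SD, n = 14), a difference of 0.36 ± 0.67 (SE). Within the first class it turned to -0.11 ± 0.85 (SE), with GCB DLBCL at 11.17 ± 0.90 (SD, n = 6), and no contrast passed in either fit.

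BIRC3 (ENSG00000023445, chr11:102317484-102339403), the ubiquitin ligase cIAP2, was lowest on average in MCL. It ran from 7.19 in UPN1 (240 reads) through a median of 10.08 to 13.45 in JVM2, with a mean of 10.32 ± 1.72 (SD, n = 11). BL averaged 12.66 ± 1.17 (SD, n = 3), ABC DLBCL 11.49 ± 1.78 (SD, n = 6) and GCB DLBCL 11.19 ± 2.01 (SD, n = 14). The BL values were 11.31 in Ramos, 13.24 in Daudi and 13.42 in Raji. MCL minus the mean of the other 3 pathologies was -1.46 ± 0.68 (SE) and MCL minus BL was -2.34 ± 1.13 (SE), and neither passed in limma (adjusted p = 0.25 and 0.42). Within the first class the first of these was -1.66 ± 0.69 (SE, limma adjusted p = 0.19), and the limma adjusted p of the second was 0.32.

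Across the 7 contrasts between pathologies, the 1 call of TNFRSF13B was thus the whole yield of the 9 tested members. In limma, 0 of 9 members were called for MCL against the mean of the other 3 pathologies, where 4.46% of all genes were called (3.97% within the first class). The same count was 0 for MCL against ABC DLBCL (0.690% of all genes, 0.735% within the first class), for MCL against BL (1.17% and 1.54%), for ABC DLBCL against GCB DLBCL (0.726% and 0.226%) and for BL against GCB DLBCL (0.153% and 0.171%). At an unadjusted p under 0.05 in limma, 2 of the 9 members passed for MCL against the other 3 pathologies in each fit, where 17.6% of all genes did over all lines and 18.7% within the first class. For MCL against GCB DLBCL it was 1 member in each fit (38.7% and 17.3% of all genes), and for MCL against ABC DLBCL 2 and 1 (10.6% and 13.9%). MCL against BL had 3 and 2 members (11.4% and 14.8%), and ABC DLBCL against GCB DLBCL also 3 and 2 (17.3% and 10.5%). BL against GCB DLBCL had 0 in each fit (15.0% and 9.28%), and BL against ABC DLBCL 1 and 2 (8.61% and 13.1%). A p that misses the threshold does not show that the pathologies are alike, and the SE of the 3-line BL contrasts reached 1.88 for TNFRSF13B.

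**Figure D2:**
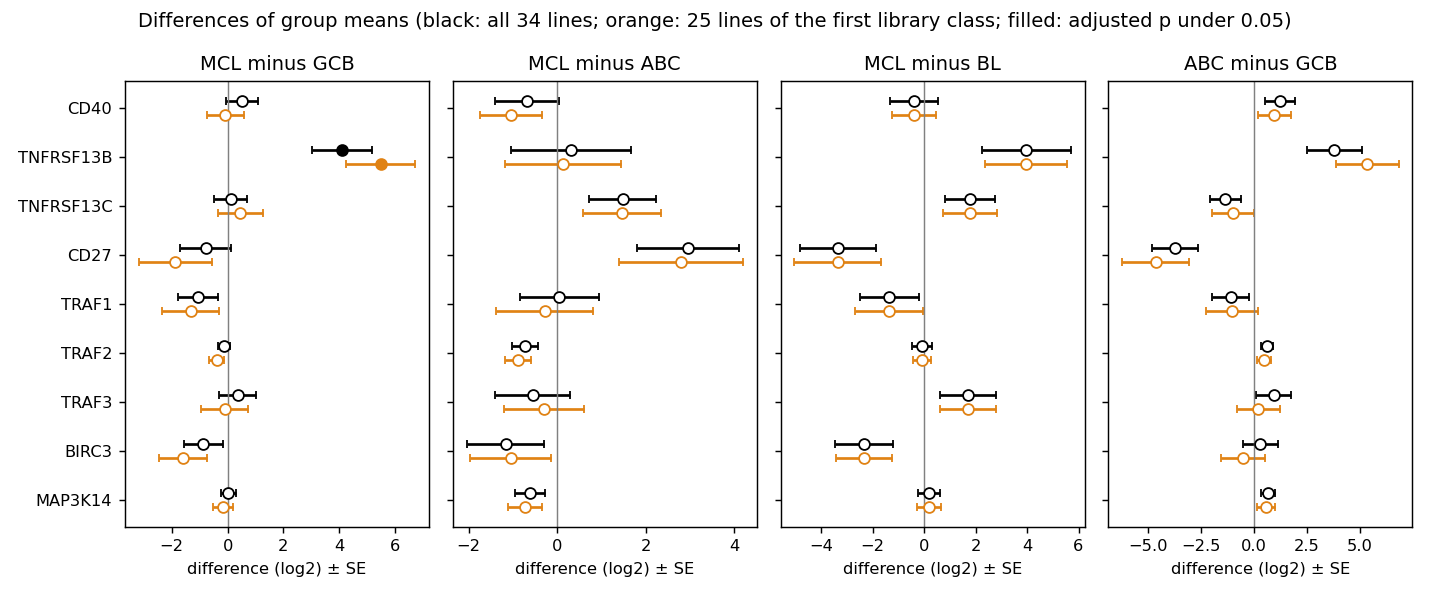
Difference of group means (log2) with its SE for 9 members in 4 contrasts, in black over all 34 lines and in orange over the 25 first-class lines, filled where limma's adjusted p was under 0.05. The filled points are TNFRSF13B for MCL minus GCB, at 4.10 and 5.48.

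A line was described as low in TRAF3, TRAF2 or BIRC3 where its value was over 1.5 below the median of the 34 lines, a choice by measured values that supports no test. By this rule 6 of 11 MCL lines were low, each in 1 of the 3 genes. MAVER-1 was low in TRAF3 (-6.42 from the median). UPN1, HBL-2, Mino, Z-138 and Jeko-1 were low in BIRC3, at 7.19, 8.84, 9.33, 9.53 and 9.64 against a limit of 9.77, and REC-1 was just outside at 10.08. At this limit no line was low in TRAF2, with Z-138 just outside at 8.64 against a limit of 8.60, followed by JVM2 at 8.94 and Mino at 9.06. The count depended on the limit. At 1 unit 8 MCL lines were low, REC-1 and JVM2 among them, with JVM2, Mino and Z-138 low in TRAF2 and the last 2 of these low in BIRC3 as well. On log2 rpm plus 0.5, 7 were low, with JVM2 and Z-138 low in TRAF2. At 2 units 3 lines remained (MAVER-1, HBL-2 and UPN1), and against the median of the 11 MCL lines 2 did (MAVER-1 and UPN1). Outside MCL, Ramos, OCI-Ly7 and SU-DHL-6 were low in TRAF3, and NU-DHL-1 (7.39), Karpas422 (8.02), SU-DHL-8 (8.84), SU-DHL-4 (9.36) and MD903 (9.70) in BIRC3.

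The line almost without TRAF3 had the highest MAP3K14 of the 11 MCL lines. MAVER-1 had 6348 reads of MAP3K14 (11.24), ahead of SP-53 (10.79) and SP-49 (10.70), and was 3rd of the 34 lines. Its NFKB2 (13.61) was 3rd of the 34, its RELB (11.58) was 15th, and its BIRC3 (12.27) was below JVM2 alone among MCL lines. The other lines low in TRAF3 did not stand high in MAP3K14: OCI-Ly7 had 10.10, SU-DHL-6 9.68 and Ramos 9.55, against a median of 9.82. Z-138, lowest of all lines in TRAF2, had the highest NFKB2 of the 34 lines (13.79, 38042 reads) and the 2nd highest RELB (12.98), with MAP3K14 at 10.13. JVM2, next lowest in TRAF2 among MCL lines, was 2nd in NFKB2 (13.69) but 22nd in RELB (11.15), and Mino, the MCL line after it, was 18th in NFKB2 (11.91). Karpas422, a GCB DLBCL line of the second class with TRAF2 at 8.94, had the lowest NFKB2 (7.71) and RELB (7.81) of the 34 lines. UPN1, lowest in BIRC3, was lowest of the MCL lines in NFKB2 (10.19) and had 9.31 for MAP3K14. Ranks here follow the log2 values, and some move in rpm. In rpm NFKB2 was highest in MAVER-1 (404), before Z-138 (350), MD903 (260), GRANTA519 (219) and JVM2 (216). TRAF2 was lower in JVM2 (7.32 rpm) than in Z-138 (8.78 rpm). Single lines give no replicate check, so these orders describe the lines and not an effect of the low gene.

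**Figure D3:**
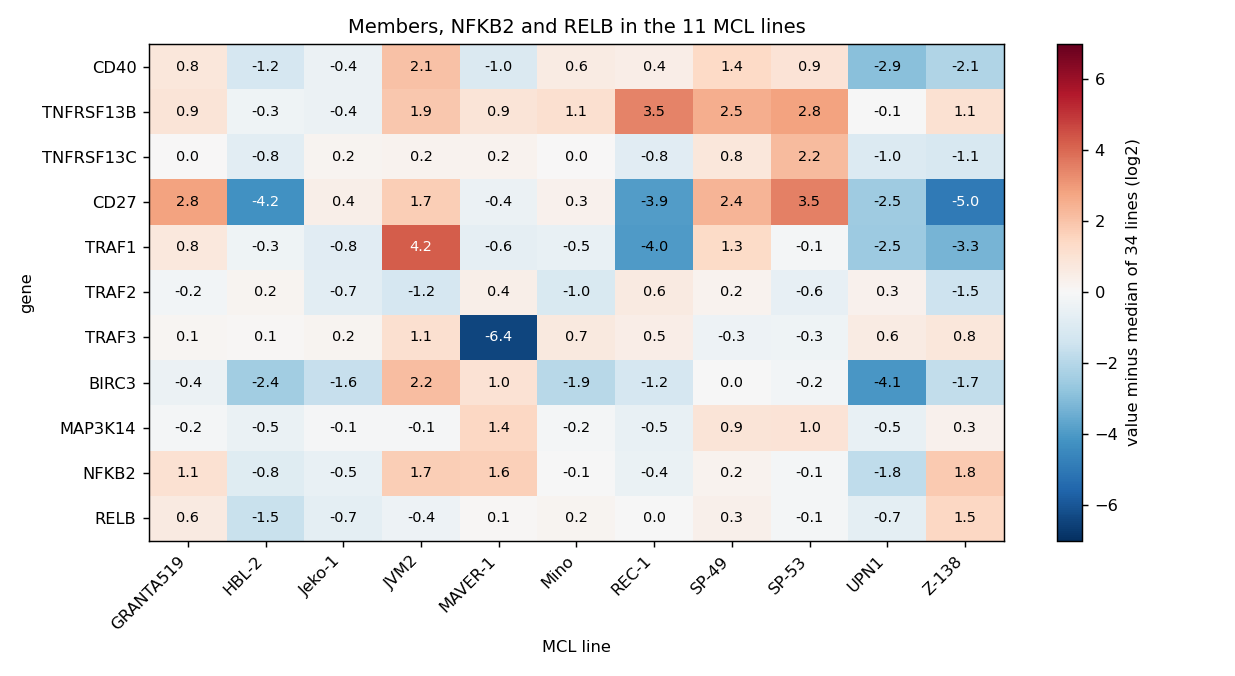
Value minus the median of all 34 lines (log2) of 9 members, NFKB2 and RELB in each of the 11 MCL lines, in red where higher and blue where lower. MAVER-1 has 4 reads of TRAF3 beside the highest MAP3K14 of these lines, and UPN1 and HBL-2 have the lowest BIRC3. JVM2 is highest in CD40, TRAF1 and BIRC3 on this scale, but in rpm its CD40 (188) is below that of SP-49 (200).

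Some genes beside TRAF3 on chromosome 14 were also low in MAVER-1. AMN and CDC42BPB, the next measured genes after TRAF3, had 0 reads there (-3.79 and -5.02 from the median of the 10 other MCL lines). In those 10 lines AMN had 14 to 14192 and CDC42BPB 575 to 3619 reads. RCOR1, on the other side of TRAF3, had 2812 reads (-0.82), and TNFAIP2 had 27 (-3.32), as in Z-138 (27 reads) and above UPN1 (10 reads). In OCI-Ly7, low in TRAF3 as well, AMN and CDC42BPB also had 0 reads, and in SU-DHL-6 they had 2 and 1. Both are second-class libraries, of 3.27 and 2.97 M reads, in which 47.4% and 40.8% of all genes had 0 reads. Low depth and a low level cannot be told apart there. The neighbours in Ramos, a first-class line low in TRAF3, are not given here. CDC42BPB had 0 reads in Daudi and SU-DHL-8 too, where TRAF3 had 871 and 3045 reads and was not low. NU-DHL-1 also had 0 reads of CDC42BPB, beside 155 of TRAF3. It is a second-class library of 2.55 M reads with 43.9% of genes at 0 reads, so the same limit of depth applies. A link between CDC42BPB and TRAF3 was not tested. The copy number of the region is not given in the sources used here.

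The low BIRC3 of UPN1 was not shared by its neighbours on chromosome 11. BIRC2, the closely related ligase beside it, had 2959 reads (-0.22 from the median of the other MCL lines) and TMEM123 18213 (0.32), while BIRC3 had 240 (-3.27). On chromosome 9, several genes next to TRAF2 were lower in Z-138 together with it (-1.45): FBXW5 (-1.15), RABL6 (-1.11), PHPT1 (-0.95) and EDF1 (-0.81). In JVM2, TRAF2 (-1.14), FBXW5 (-1.13) and RABL6 (-2.0) were lower, whereas PHPT1 (2.28) and EDF1 (0.63) were higher.

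**Figure D4:**
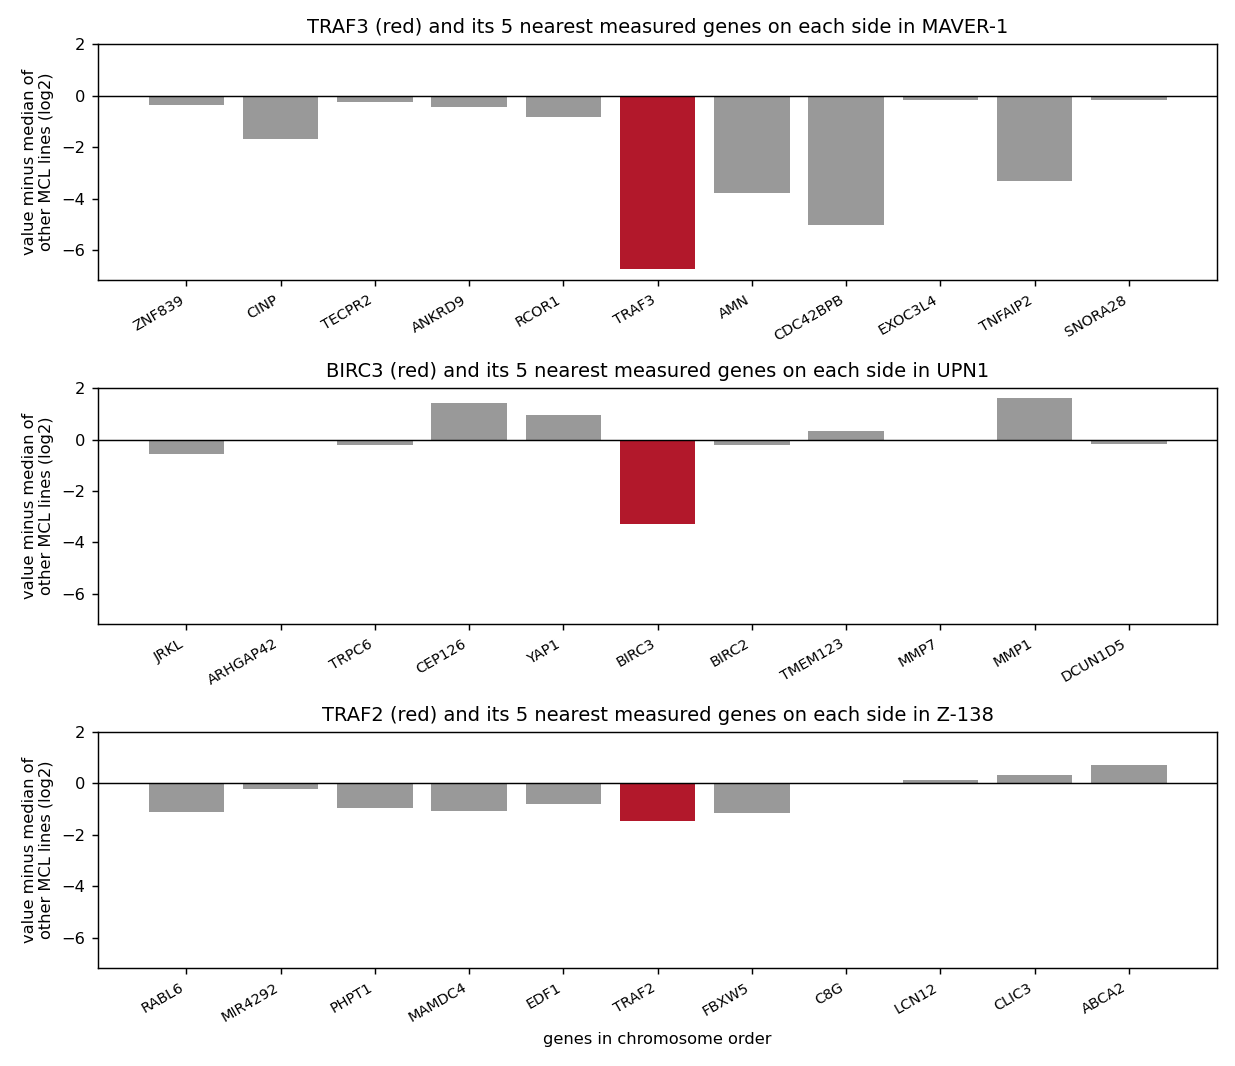
Value minus the median of the 10 other MCL lines (log2) for TRAF3 in MAVER-1, BIRC3 in UPN1 and TRAF2 in Z-138 (red) and the 5 nearest measured genes on each side (grey), in chromosome order. TRAF3 is low together with AMN and CDC42BPB, BIRC3 is low beside a level BIRC2, and TRAF2 is low with several neighbours by smaller amounts.

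A list of 20 genes that NF-kB is known to induce differed in level between the MCL lines. JVM2 had 17 of the 20 over 1 unit above the median of the 10 other MCL lines and 0 below, where 19.6% of all genes were that far above. The JVM2 count rests on the log2 scale: TRAF3 was 12.44 at 90.0 rpm in JVM2 but 11.42 at 90.9 rpm in HBL-2. SP-49 had 15 above and 1 below (8.67% of all genes above), and GRANTA519 13 and 0 (8.61% above). Mino, although low in BIRC3, had 10 above and 1 below (5.11% of all genes above), and SP-53 9 and 1 (9.19% above). UPN1 had 17 of 20 over 1 unit below and 0 above, where 8.53% of all genes were that far below. Jeko-1 had 12 below and 0 above (6.65% of all genes below), HBL-2 11 and 1 (8.70% below) and MAVER-1 11 and 0 (8.50% below). REC-1 had 8 below and 2 above. MAVER-1, high in MAP3K14 and NFKB2, was thus among the lines low in this list, with CCL3 at 4 reads, CCL4 at 8 and EBI3 at 1, while PLEK (0.74 above) and TNIP1 (0.29 above) were not low. Z-138 had 3 above and 8 below (6.39% of all genes above and 6.98% below), with JUNB 1.76 and NFKBIA 1.27 above and BCL2A1 at 0 reads.

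**Figure D5:**
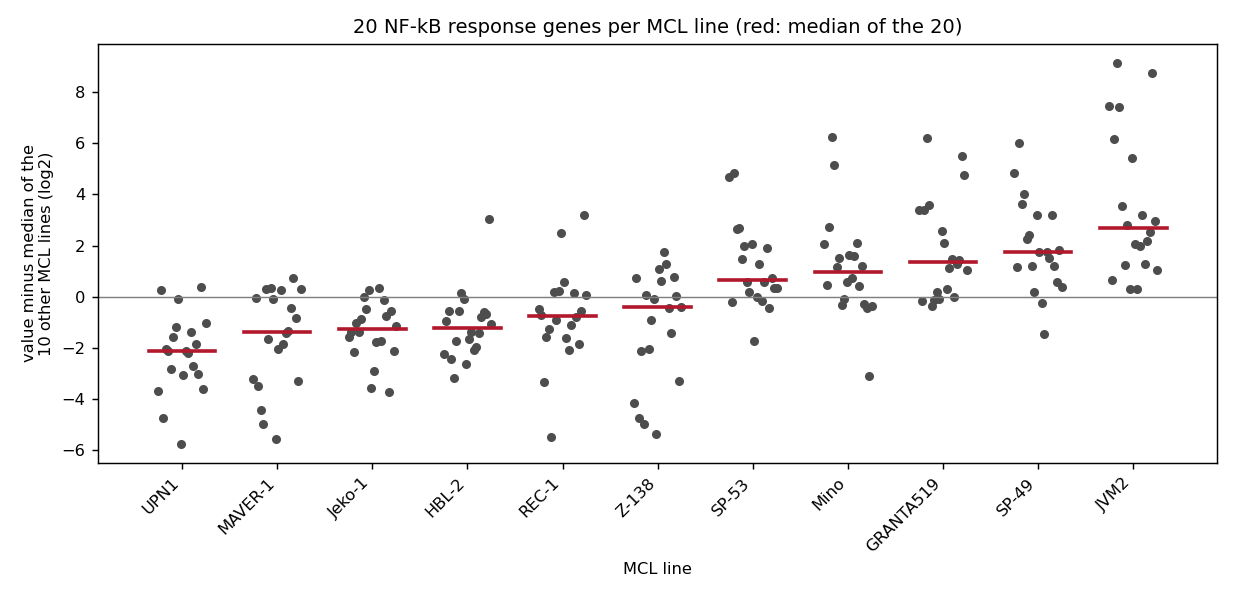
Value minus the median of the 10 other MCL lines (log2) for each of 20 NF-kB response genes (points) and their median (red bar) per MCL line, ordered by that median. The medians run from -2.12 in UPN1 to 2.68 in JVM2, with MAVER-1 at -1.39 and Z-138 at -0.41.

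Of 22 other TNF receptors, 3 rose and 0 fell against the mean of the other 3 pathologies (3.60% of all genes rose), and the same 3 rose within the first class (2.86% rose): TNFRSF18, which encodes GITR (2.87 ± 0.46, SE), TNFRSF19 (3.08 ± 0.51, SE) and TNFRSF4, which encodes OX40 (1.99 ± 0.42, SE), at limma adjusted p of 0.00014, 0.00028 and 0.0034. TNFRSF18 had 37 to 4458 reads in MCL lines and 0 reads in 7 GCB DLBCL, 1 ABC DLBCL and 2 BL lines. The list's median difference was 0.57, against -0.01 over all genes. Against GCB DLBCL 6 rose and 2 fell, beside the 23.7% of all genes called, and within the first class 2 rose, TNFRSF18 and TNFRSF1B, and 0 fell (1.56% rose and 1.27% fell). TNFRSF1B, the second TNF receptor, was 3.98 ± 0.99 (SE) higher in MCL (limma adjusted p = 0.0061) and had 0 reads in 6 GCB DLBCL lines. TNFRSF18 and TNFRSF19 also passed against ABC DLBCL (0.523% of all genes rose) and BL (0.794% rose), but not within the first class. Both calls against BL ended without any 1 of the BL lines, and both calls against ABC DLBCL ended without OCI-Ly3 or OCI-Ly10.

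Among the 13 tested ligands of 16 listed, 3 rose in MCL against the other 3 pathologies (CD70, TNFSF12 and TNFSF14), beside 3.60% of all genes that rose. Within the first class 0 rose in this contrast, beside 2.86% of all genes. Against GCB DLBCL 5 rose and 0 fell, beside 23.7% of all genes called in either direction. Within the first class 0 rose and 1 fell against GCB DLBCL, beside 1.56% of all genes that rose and 1.27% that fell. Against the other 3 pathologies the call of CD70 held in 25 and that of TNFSF14 in 11 of the 34 fits that leave out 1 line. CD70, the ligand of CD27, was 1.99 ± 0.52 (SE) higher in MCL than in GCB DLBCL (limma adjusted p = 0.0078, and 0.17 within the first class), with 6110 to 62658 reads in MCL lines. LTB, a lymphotoxin subunit and ligand of the receptor encoded by LTBR, was the 1 ligand to fall within the first class (-3.75 ± 0.97, SE, limma adjusted p = 0.037), and over all lines its difference of -2.12 did not pass (limma adjusted p = 0.076). Of 18 TRAF and ubiquitin regulators, 1 rose in ABC DLBCL against GCB DLBCL (0.392% of all genes rose): TNFAIP3, the deubiquitinase A20 that restrains NF-kB, by 3.48 ± 0.81 (SE, limma adjusted p = 0.035, and 0.19 within the first class). Its call was lost when any 1 of HBL-1, OCI-Ly3, OCI-Ly10, Karpas422, SU-DHL-4 or WSU-DLCL2 was left out. Of 12 kinases and NF-kB subunits, 1, the subunit gene REL, was called in MCL against GCB DLBCL (23.7% of all genes called), where it fell (-1.45 ± 0.47, SE, limma adjusted p = 0.026). REL did not pass within the first class (limma adjusted p = 0.32) or without Z-138. Of the 20 NF-kB response genes, 7 rose and 0 fell in MCL against GCB DLBCL (23.7% of all genes called in either direction), led by CCL3 (4.81), CCR7 (4.37) and CCL4 (4.15). Within the first class 0 of them were called in this contrast, beside 2.83% of all genes.

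The genes most like each member in their order over the 25 first-class lines are given as Spearman correlations, a description of libraries that share pathology and depth differences. CD40 was most like BCL2A1 (0.93), a survival gene, then ATP6V0E1 (0.88) and BID (0.85). TNFRSF13B went with TBC1D27 (0.89), ENTPD1 (0.84) and TMPRSS6 (0.82), and TNFRSF13C with SNX8 (0.77), NSG1 (0.74) and RP11-589N15.2 (0.72). CD27 went with HLA-DOB (0.83), SCIMP (0.82) and VAMP1 (0.82), which lies close to it on chromosome 12. TRAF1 went with LINC01160 (0.87), MAPK6 (0.85) and MAP3K8 (0.83), a kinase of the NF-kB route. For TRAF2 they were SAFB2 (0.78) and DDI2 (0.75), for TRAF3 ANKRD65 (0.78), DACT1 (0.76) and VWA1 (0.75), for BIRC3 FBXO27 (0.79), PEX11A (0.79) and SGO1-AS1 (0.75), and for MAP3K14 DENND4C (0.77), ZNF264 (0.72) and F5 (0.71). Among the members themselves the closest pairs were CD40 with TRAF1 (0.65) and TRAF1 with BIRC3 (0.61), followed by BIRC3 with MAP3K14 (0.59). TRAF3 and MAP3K14 were at -0.15 and TRAF2 and MAP3K14 at 0.08.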

How the data were processed

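RNA was sequenced from 34 lymphoma lines, 1 library each, at several times that the labels do not assign to lines. STAR 2.5.3a, R 3.6.1, DESeq2 1.26.0 and the build GRCh38 are named, without a role, per the submitters' processing notes. The authors deposited 1 table of log2 values, whose form is that of a variance-stabilising transform. Inverting it returned whole reads for 100% of values (tolerance 0.05), and these reads describe depth and levels and make the log2 reads-per-library-total alternatives. The log2 values were tested with limma 3.58.1 (R 4.3.3; trend, 1 mean per pathology, all 34 lines, two-sided, Benjamini-Hochberg over 22167 genes with at least 3 lines over 1 log2 unit above the lowest value); the method was tested on simulated data. Alternatives changed filter, scaling, transform and libraries. The members and lists were chosen with earlier results of these data known. Genes were named by list, by call, by likeness (first 3) or by position (5 on each side). For TRAF2, 1 of the 3 like genes is not reported here. Coordinates and promoters are RefSeq's (GRCh38.p14). Python 3.11.15 was used for descriptions.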

Additional observations from a re-analysis of the deposited data

How the results depend on the processing

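The number of members called kept its value in all 7 contrasts under the 10 alternative settings. Leaving out 1 line gave the same number each time except for ABC DLBCL against GCB DLBCL, which ranged from 0 to 1: TNFRSF13B passed without SU-DHL-8, and CD27 without Toledo. TNFRSF13B in MCL against GCB DLBCL kept its direction and call in the 10 settings and the 34 fits without 1 line. The 6 MCL lines low in TRAF3, TRAF2 or BIRC3 became 8 at a limit of 1 unit, 7 on log2 rpm plus 0.5 (rpm, reads scaled to library totals of 1e6), 3 at 2 units and 2 against the median of the MCL lines. The called genes of the other lists kept their direction, and of 350 refits under other settings 242 kept the call and 108 lost it.

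The calls over all genes moved with the scaling (higher, then lower). MCL against the other 3 pathologies had 798 and 191, but 527 and 1097 after median-centring, 702 and 366 after quantile normalization, 492 and 117 with log2 rpm plus 2 and 471 and 83 in re-analysed lines. Against GCB DLBCL 2436 and 2809 became 1473 and 4429 after median-centring, 1629 and 3251 with log2 rpm plus 0.5, 1370 and 2714 with log2 rpm plus 2, 346 and 282 within the first class and 387 and 135 with class as a covariate. Against ABC DLBCL 116 and 37 became 82 and 102 after median-centring, 84 and 79 within the first class and 63 and 17 with log2 rpm plus 2. Against BL 176 and 83 became 120 and 208 after median-centring, 141 and 128 after quantile normalization, 87 and 65 with log2 rpm plus 2 and 28 and 13 in re-analysed lines. ABC DLBCL against GCB DLBCL had 87 and 74, but 126 and 60 after median-centring, 45 and 96 with log2 rpm plus 0.5, 37 and 56 with log2 rpm plus 2, 46 and 46 in re-analysed lines, 23 and 27 within the first class and 10 and 16 with class as a covariate. The BL contrasts with 20 and 14 (GCB DLBCL) and 15 and 11 (ABC DLBCL) became 59 and 16, and 32 and 17, after quantile normalization. Against ABC DLBCL it was 61 and 58 within the first class, 45 and 40 without the 8 shallow libraries and 8 and 0 in re-analysed lines. Against GCB DLBCL it was 8 and 3 with class as a covariate, 40 and 15 with no filter and 22 and 30 in re-analysed lines. The causes were not tested. Median-centring put the median of all genes at -0.28 for MCL against the others.

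No paired analysis was possible because each line is a separate culture and the labels number no replicates. Depth limits the 8 shallow GCB DLBCL libraries, where 3 reads stand for up to 1.18 rpm.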
